A study of Mus musculus with 8 samples.

Results

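Myc, Odc1, Vegfa, Fgf2, Hif1a, Xiap, Igf1r, Cdkn1b, Nbn and Apaf1 are 10 genes tied to cell growth, survival or death. Their mRNAs are known for sensitivity to the initiation factor eIF4E or for a reported internal entry of ribosomes, as set out below. The genes were taken as every non-control probe that the scanner tables name for 1 of them, which gave 28 of 41174 probes. Xiap appears there under its older name Birc4. All 10 genes were among the 14474 tested of 27573 measured genes, through 23 tested probes, and the other 5 probes (1 each of Xiap, Igf1r, Cdkn1b, Nbn and Apaf1) were too dim to test. The study measured cultured lymph node stromal cells (LNSC) of BALB/c mice, 48 h after transfection with Lipofectamine of 400 pmol of Eif4g3 siRNA or control siRNA. Total RNA was measured on 4 arrays, and heavy polysome RNA on another 4, the latter being RNA of sucrose gradient fractions whose mRNAs carry many ribosomes. On each array the Eif4g3 siRNA sample, in Cy5, was set directly against control siRNA RNA from that fraction, in Cy3. The cells for the gradients were pooled from several plates, and no dye swap was made, so within a fraction dye and siRNA cannot be told apart. The labels do not say whether the replicates are separate cultures, so p-values measure only the spread between these arrays, which may be technical. An siRNA lowers its target and removes neither the gene nor the paralogues of its product.

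Most mRNAs are recruited to the ribosome through their 5′ cap, which is bound by eIF4E. The scaffold protein eIF4G, of which Eif4g3 encodes 1 form, joins eIF4E to the helicase eIF4A and to the ribosome through eIF3. Transcripts with long, structured leaders, such as those of Myc, Odc1, Vegfa and Fgf2, are known for translation that depends strongly on the supply of eIF4E. Nbn mRNA is known from human cells as a transcript whose export from the nucleus eIF4E promotes. The mRNAs of Myc, Vegfa, Fgf2, Hif1a, Xiap, Igf1r, Cdkn1b and Apaf1 have been reported, mostly from human or reporter mRNAs, to hold an internal ribosome entry site (IRES), a leader sequence that recruits ribosomes without the cap. A transcript whose ribosome loading changes while its abundance does not would show a ratio in heavy polysome RNA that differs from its ratio in total RNA. That difference is the comparison made here. Because equal masses of RNA were labelled, each value is relative to the rest of the RNA it was labelled with.

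Eif4g3, the siRNA target, fell on all 8 arrays, both in total RNA (log2 ratio of Eif4g3 siRNA over control siRNA -2.07 ± 0.29, mean ± SD, n = 4, limma adjusted p = 0.00197) and in the heavy polysome fraction (-2.46 ± 0.50, n = 4, adjusted p = 6.07e-04). Its second probe gave -1.95 ± 0.75 and -2.07 ± 0.26. Between 38.4% and 58% of non-control spots were above background per array and channel, and none of these spots was saturated. The number of arrays limits the precision. Heavy polysome arrays 1 and 3 and total RNA array 4 followed the other arrays of their fraction least (mean correlation 0.289, 0.318 and 0.327 across genes). Heavy polysome arrays 2 and 4 resembled each other most (0.883). Of the stromal markers 9 of 10 were above background on all 8 arrays, among them Pdgfra, Pdgfrb and the collagen genes. Of the macrophage markers 7 of 10 were too, while the defining Ptprc, Adgre1 and Itgam were above background on none. The defining endothelial markers Pecam1 and Lyve1 and the lymphocyte markers Cd8a, Cd79a and Ms4a1 were above background on none. In these bulk samples, fewer cells of a type and less RNA per cell cannot be told apart.

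In total RNA 1 of the 10 genes passed the threshold of adjusted p 0.05, Fgf2, which was higher. The same threshold called 4.37% of all tested genes, 1.67% higher and 2.7% lower. In heavy polysome RNA 2 of the 10 passed, Fgf2, which was higher, and Igf1r, which was lower, where 8.91% of all genes were called, 4.88% higher and 4.03% lower. Counts of 1 and 2 among 10 genes are too small to be set apart from these shares and are no result about the group. For the change in heavy polysome RNA beyond that in total RNA, limma called 0 of the 10 and 0% of all genes. At an unadjusted p under 0.05 this difference held 1 of the 10, Igf1r, and 5.22% of all genes, and the lowest adjusted p of any gene was 0.847. The median log2 ratio of the 10 genes was -0.06 in the total and 0.04 in the heavy polysome fraction, beside -0.04 and 0.02 for all tested genes. The median size of the ratio, whatever its sign, was 0.19 and 0.26 for the 10 genes and 0.15 and 0.17 for all genes.

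**Figure D1:**
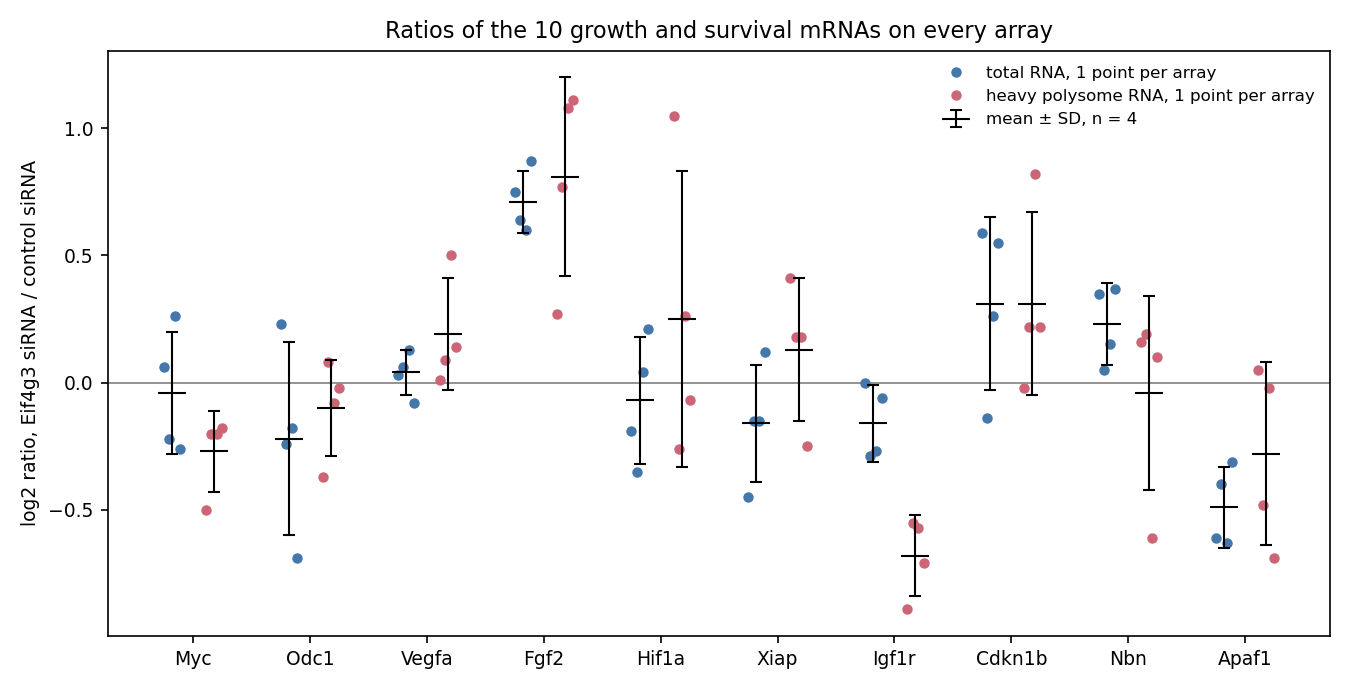
Log2 ratio of Eif4g3 siRNA over control siRNA (vertical axis) for the 10 genes, with 1 point per array, total RNA in blue and heavy polysome RNA in red, and black bars for mean ± SD (n = 4). All 8 points of Fgf2 lie above 0, and the 4 heavy polysome points of Igf1r (-0.89 to -0.55) lie below its 4 total RNA points (-0.29 to 0.00).

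Fgf2 encodes a heparin-binding fibroblast growth factor that is made from several start codons. Its brightest probe, A_52_P376768 (mm8 chr3:37596166-37596225, plus strand), gave log2 ratios of 0.75, 0.64, 0.60 and 0.87 on total RNA arrays 1 to 4. On heavy polysome arrays 1 to 4 it gave 0.27, 0.77, 1.08 and 1.11. Every array was above 0, heavy polysome array 1 was the lowest of the 8, and the fractions overlapped. Fgf2 was the only one of the 10 genes above 0 on all 8 arrays, as 6.15% of all genes were, and 0 of the 10 were below 0 on all 8, as 7.84% of all genes were. In total RNA it rose 1.64-fold (0.71 ± 0.12, n = 4, limma adjusted p = 0.0243), and in heavy polysome RNA 1.75-fold (0.81 ± 0.39, n = 4, adjusted p = 0.00847). The change in heavy polysome RNA exceeded that in total RNA by 0.10 (95% interval -0.33 to 0.52, adjusted p = 0.953). This interval holds both a gain and a loss of loading. The difference passed for no tested gene, so failing to pass sets no bound on a shift. Leaving out any 1 total RNA array ended the total RNA call (adjusted p 0.0799 to 0.0886), and leaving out heavy polysome array 4 ended the heavy polysome call (0.0534). When each array was centred on its median with no loess curve, the total RNA value became -0.05 while the median of all genes became -0.78, so Fgf2 lay 0.73 above that median and 0.75 above it in the main setting.

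A second Fgf2 probe, A_51_P399845, spans an intron (mm8 chr3:37540561-37587780) and was printed in 10 spots per array. Its ratios were 0.14, 0.29, 0.16 and 0.54 in total RNA, against 0.23, 0.34, 0.59 and 0.69 in heavy polysome RNA. Again all 8 arrays were above 0 and the fractions overlapped. The means were 0.28 ± 0.18 and 0.46 ± 0.22 (n = 4), smaller than those of the brightest probe, and in a limma fit of every probe by itself, which called 3.91% of probes for total RNA against 7.85% for heavy polysome RNA, the adjusted p was 0.157 and 0.0300. The heavy polysome call of this probe was lost without any 1 of 5 arrays, total RNA arrays 2 and 3 and heavy polysome arrays 2, 3 and 4 (adjusted p up to 0.142). Spots of the probe on 1 array differed by an SD of 0.05 to 0.39. Nudt6, a Nudix hydrolase gene that overlaps Fgf2 on the opposite strand in the RefSeq annotation, was looked up after the Fgf2 values were seen. It gave 0.45, 0.02, 0.68 and 0.82 in total RNA (adjusted p = 0.0998). In heavy polysome RNA it gave 1.51, 0.76, 1.02 and 0.82, where it rose 2.04-fold (adjusted p = 0.00606). The receptors of FGF2 did not pass: Fgfr1 gave -0.45 ± 0.58 in total against 0.35 ± 0.63 in heavy polysome RNA, Fgfr2 -0.11 ± 0.13 and 0.02 ± 0.15. The co-receptor Sdc4 gave -0.47 ± 0.59 and 0.35 ± 0.80 and did not pass either.

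Igf1r encodes the receptor tyrosine kinase for insulin-like growth factors, which signals to PI3 kinase and on to cap-dependent translation. Its brightest probe, A_51_P474538 (mm8 chr7:68105625-68105684, plus strand), gave 0.00, -0.29, -0.27 and -0.06 in total RNA. In heavy polysome RNA it gave -0.89, -0.55, -0.57 and -0.71. All 4 heavy polysome arrays were lower than all 4 total RNA arrays, with heavy polysome array 1 lowest. No other of the 10 genes had fractions that did not overlap. Among all genes 3.61% had such fractions, and 1.23% had heavy polysome ratios wholly below those of total RNA. Igf1r mRNA fell 1.60-fold in heavy polysome RNA (-0.68 ± 0.16, n = 4, limma adjusted p = 0.00469), and in total RNA its ratio was -0.16 ± 0.15 (n = 4, adjusted p = 0.369). The heavy polysome call was kept with any 1 of the 8 arrays left out (adjusted p from 0.00586 to 0.0326). The change in heavy polysome RNA was lower than that in total RNA by a log2 difference of -0.52 (95% interval -0.82 to -0.23), which did not pass after adjustment over all genes (adjusted p = 0.847). With median centring in place of loess this difference was 0.35 where the median of all genes was 0.78, so it was -0.43 relative to that median and -0.58 relative to it in the main setting.

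The other Igf1r probes did not pass. A_51_P318365 (mm8 chr7:68100183-68100242) gave -0.39 ± 0.35 in total RNA against -0.32 ± 0.61 in heavy polysome RNA, where array 3 stood at 0.56 and the other 3 arrays between -0.83 and -0.46. A_52_P634111 (mm8 chr7:68101127-68101186) gave -0.03 ± 0.27 and -0.29 ± 0.36, with 3 of 4 heavy polysome arrays below 0. All 3 tested probes thus had a negative mean in both fractions, and only the brightest had fractions that did not overlap. The fourth, A_52_P668647, was above background on none of the arrays. With the mean of all tested probes Igf1r gave -0.43 in heavy polysome RNA (limma adjusted p = 0.0426). The difference between fractions was then -0.24 (adjusted p = 0.782).

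**Figure D2:**
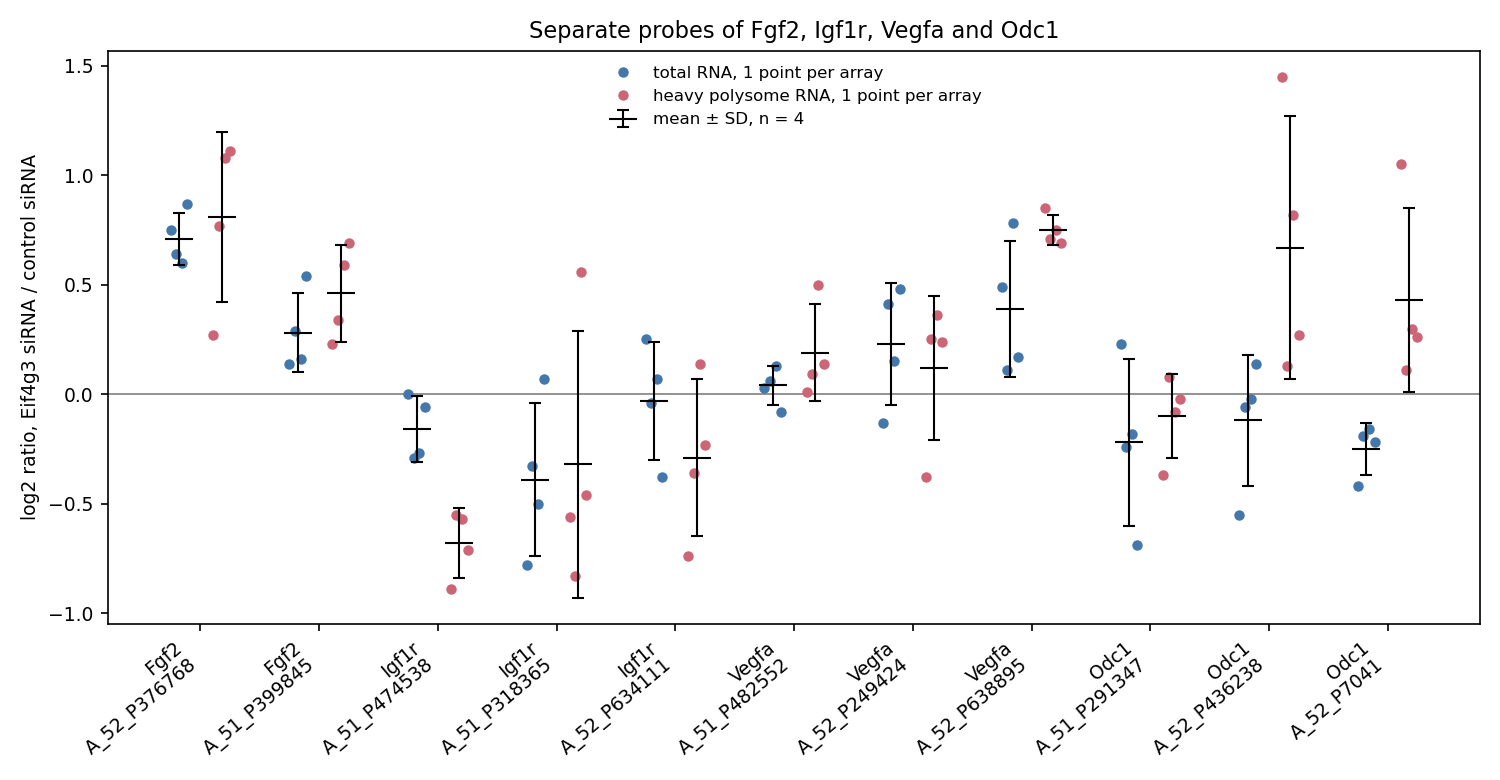
Log2 ratio of Eif4g3 siRNA over control siRNA (vertical axis) for every tested probe of Fgf2, Igf1r, Vegfa and Odc1, the brightest of each gene first, with 1 point per array (total RNA blue, heavy polysome RNA red) and mean ± SD (n = 4). The heavy polysome mean of Vegfa runs from 0.12 to 0.75 between its 3 probes and that of Odc1 from -0.10 to 0.67, while both Fgf2 probes lie above 0 on every array.

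The genes around Igf1r did not move in 1 direction. Igf2r, the mannose 6-phosphate receptor that takes up IGF2 for degradation, gave 0.10, -0.27, -0.22 and 0.04 in total RNA, against -1.12, -0.71, -0.68 and -0.67 in heavy polysome RNA. As for Igf1r, all heavy polysome arrays were below all total RNA arrays. Igf2r fell in heavy polysome RNA (-0.79 ± 0.21, n = 4, adjusted p = 0.00448, kept with any 1 array left out) and had -0.09 ± 0.18 in total RNA (adjusted p = 0.695). The difference between fractions was -0.71 with an adjusted p of 0.847. Irs1, the adaptor that passes the signal of the receptor on, fell in heavy polysome RNA (-0.75 ± 0.29, n = 4, adjusted p = 0.0130, but 0.0513 without heavy polysome array 4), beside -0.33 ± 0.32 in total RNA. Igfbp4, which binds IGFs outside the cell, rose in heavy polysome RNA (0.60 ± 0.39, n = 4, adjusted p = 0.0322). This call was lost without any 1 of 6 arrays, all 4 of heavy polysome RNA and total RNA arrays 2 and 3 (adjusted p up to 0.0908). The ligands Igf1 (0.00 ± 0.14 and -0.17 ± 0.15) and Igf2 (0.05 ± 0.10 and 0.01 ± 0.07) and the binding protein gene Igfbp3 (-0.21 ± 0.09 and -0.15 ± 0.11) did not pass in either fraction. Beside the falls of Igf1r, Igf2r and Irs1, 5 of the 10 stromal markers passed in heavy polysome RNA (50%, beside 8.91% of all genes). Pdgfra (-0.65 ± 0.13), Col1a1 (-0.67 ± 0.36), Pdgfrb (-0.47 ± 0.17) and Col1a2 (-0.42 ± 0.09) were lower and Cxcl12 (0.78 ± 0.47) was higher (adjusted p 0.0109 to 0.0462). The median of the 10 markers lay between -0.19 and -0.13 on the heavy polysome arrays and between -0.31 and -0.01 on the total RNA arrays, where Col1a2 alone passed (-0.46 ± 0.28, adjusted p = 0.0493). Their part in the results of the IGF genes was not tested.

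**Figure D3:**
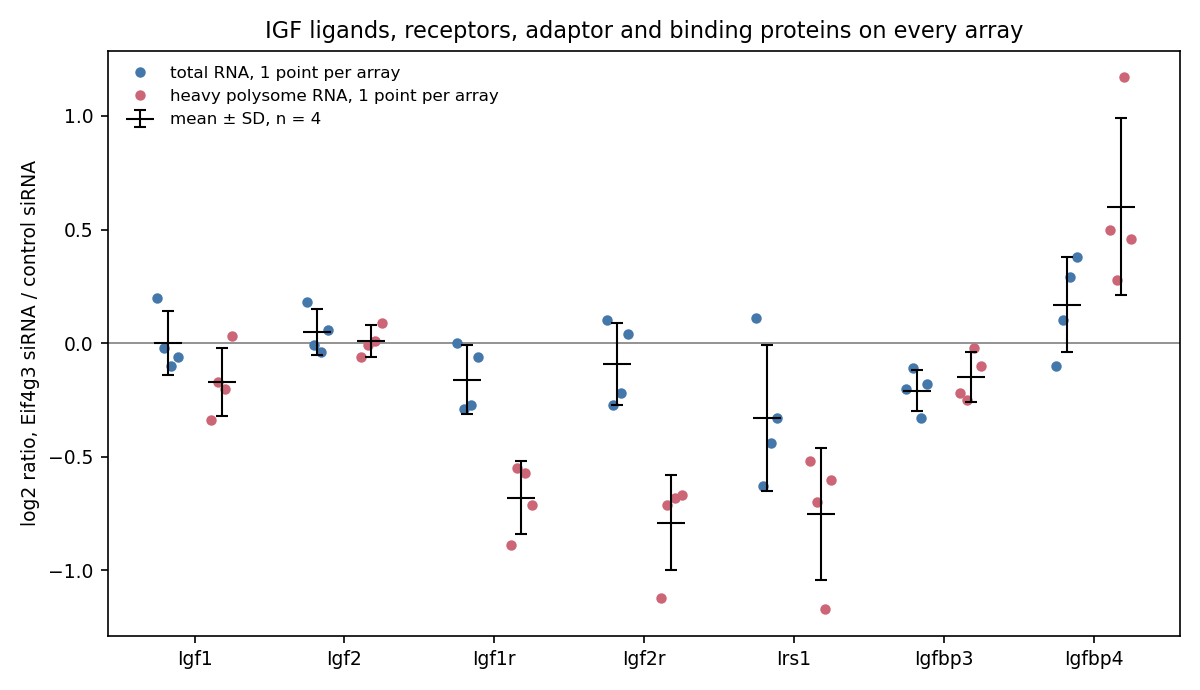
Log2 ratio of Eif4g3 siRNA over control siRNA (vertical axis) for ligands, receptors, the adaptor Irs1 and binding proteins of the IGF system, with 1 point per array (total RNA blue, heavy polysome RNA red) and mean ± SD (n = 4). In Igf1r and Igf2r the 4 heavy polysome points lie below the 4 total RNA points, and Igfbp4 has its 4 heavy polysome points above 0.

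The genes whose ratios ran most like those of Igf1r over the 8 arrays, among 14467 genes with a value on each, were Igf2r (Pearson's r = 0.984), the phosphoinositide phosphatase gene Mtmr4 (0.965) and the kinesin adaptor gene Kifap3 (0.955). For Fgf2 they were the haem oxygenase gene Hmox1 (0.964), Nkapd1 (0.958) and the transporter gene Slc6a13 (0.954). These values describe likeness over arrays that share their dye layout and hold the same contrast in 2 fractions. They carry no test. Pearson's r takes no account of level, and except for Igf2r these genes did not pass in either fraction. Hmox1 gave -0.26 ± 0.20 in total against -0.11 ± 0.45 in heavy polysome RNA. Nkapd1 gave -0.03 ± 0.13 and 0.13 ± 0.38, and Slc6a13 -0.07 ± 0.03 and -0.08 ± 0.10, so none rose as far as Fgf2. Mtmr4 gave 0.33 ± 0.14 and -0.19 ± 0.15, Kifap3 0.11 ± 0.12 and -0.15 ± 0.09.

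Apaf1 encodes the scaffold of the apoptosome, the complex that activates caspase 9 when cytochrome c leaves the mitochondria. Its ratios were -0.61, -0.40, -0.63 and -0.31 in total RNA, against 0.05, -0.48, -0.02 and -0.69 in heavy polysome RNA. All total RNA arrays were below 0, whereas heavy polysome arrays 1 and 3 stood near 0 and arrays 2 and 4 within the range of total RNA or just below it. The total RNA mean of -0.49 ± 0.16 (n = 4) did not pass (limma adjusted p = 0.0648), and neither did the heavy polysome mean of -0.28 ± 0.36 (adjusted p = 0.210). Total RNA passed in 6 of 21 other settings (adjusted p 0.00573 to 0.0432), among them the signals as processed by the scanner software (-0.53, adjusted p = 0.0340), and heavy polysome RNA in 3. For both fractions these include the scanner-processed signals and the series matrix, which hold nearly the same values. They also include leaving out the 3 arrays of lowest correlation, an alternative added after seeing the data. The mean of all tested probes gave -0.21 in total RNA (adjusted p = 0.222) and -0.17 in heavy polysome RNA (adjusted p = 0.299). A dimmer probe, A_51_P368696, above background in Cy5 on 1 of 4 total RNA arrays, gave 0.06 ± 0.16 and -0.06 ± 0.16. The partners in the apoptosome, Casp9 (-0.11 ± 0.56 and -0.20 ± 0.40) and the cytochrome c gene Cycs (0.17 ± 0.11 and 0.31 ± 0.33), did not pass. Most like Apaf1 over the 8 arrays were Rftn2 (r = 0.980), Csad (0.976) and the AP-1 subunit gene Fosl2 (0.973). Their total RNA means were -0.35 ± 0.13, 0.06 ± 0.20 and -0.34 ± 0.17. In heavy polysome RNA they had -0.09 ± 0.33, 0.27 ± 0.30 and -0.01 ± 0.52, and none passed in either fraction.

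Among the genes classed as sensitive to eIF4E, Myc encodes the transcription factor that drives growth and ribosome production. Its brightest probe, with 10 spots per array, gave 0.06, -0.22, 0.26 and -0.26 in total RNA, against -0.50, -0.20, -0.20 and -0.18 in heavy polysome RNA. All 4 heavy polysome arrays were below 0, array 1 by the most, and they overlapped with total RNA. The means were -0.04 ± 0.24 (adjusted p = 0.876) and -0.27 ± 0.16 (adjusted p = 0.156, n = 4), with a difference of -0.23 (95% interval -0.57 to 0.11). The other Myc probes gave total RNA means of -0.13 ± 0.19 and -0.31 ± 0.24 and heavy polysome means of -0.14 ± 0.31 and -0.03 ± 0.25. Their differences between fractions were -0.01 and 0.28, and the mean of all 3 probes gave 0.01, so the direction of the difference depended on the probe. Of 18 tested genes known as MYC targets, 0 passed in total RNA and 2 were lower in heavy polysome RNA (11.1%, beside 8.91% of all genes). These were Cad, the enzyme that starts pyrimidine synthesis (-0.52 ± 0.19, adjusted p = 0.0201), and Ranbp1, a regulator of nuclear transport (-0.67 ± 0.45, adjusted p = 0.0441). The Cad call was lost without heavy polysome array 1, 2 or 4 (adjusted p up to 0.0843), and the Ranbp1 call without any 1 of 6 arrays, all but total RNA arrays 1 and 4 (up to 0.117).

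Odc1 encodes ornithine decarboxylase, the first enzyme of polyamine synthesis, and its 3 probes did not give 1 answer in heavy polysome RNA. The brightest, A_51_P291347, gave 0.23, -0.24, -0.18 and -0.69 in total RNA, against -0.37, 0.08, -0.08 and -0.02 in heavy polysome RNA, means of -0.22 ± 0.38 and -0.10 ± 0.19. A_52_P436238 gave -0.55, -0.06, -0.02 and 0.14 in total RNA, against 1.45, 0.13, 0.82 and 0.27 in heavy polysome RNA. A_52_P7041 gave -0.42, -0.19, -0.16 and -0.22 in total RNA, against 1.05, 0.11, 0.30 and 0.26 in heavy polysome RNA. In this last probe all heavy polysome arrays were above all total RNA arrays, with array 1 farthest out, as in A_52_P436238. Neither heavy polysome mean of A_52_P436238 and A_52_P7041 (0.67 ± 0.60 and 0.43 ± 0.42) passed (adjusted p = 0.0761 and 0.0972), and the differences between fractions, 0.79 and 0.67, had an adjusted p of 0.794. On total RNA array 2 the file names A_52_P7041 for a locus similar to Odc1, so the transcripts it reads are uncertain. None of the 6 tested polyamine partners passed, among them the antizyme gene Oaz1 (-0.06 ± 0.52 and 0.66 ± 0.86) and the antizyme inhibitor gene Azin1 (-0.27 ± 0.11 and -0.07 ± 0.26).

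Vegfa encodes the main growth factor of blood vessels. Its brightest probe, A_51_P482552 (mm8 chr17:45482144-45482203, minus strand), gave 0.03, 0.06, 0.13 and -0.08 in total RNA, against 0.01, 0.09, 0.50 and 0.14 in heavy polysome RNA. The means of 0.04 ± 0.09 and 0.19 ± 0.22 did not pass (adjusted p = 0.869 and 0.272). A_52_P638895, which lies farther 3′ (mm8 chr17:45481019-45481078), gave 0.49, 0.11, 0.78 and 0.17 in total RNA, against 0.85, 0.71, 0.75 and 0.69 in heavy polysome RNA. All 8 of its arrays were above 0, and total RNA array 3 reached into the range of heavy polysome RNA. This probe alone was higher in heavy polysome RNA in the fit of single probes (0.75 ± 0.07, n = 4, limma adjusted p = 0.00718, kept with any 1 array left out), while total RNA gave 0.39 ± 0.31 (adjusted p = 0.0871). The third probe gave 0.23 ± 0.28 and 0.12 ± 0.33. With the mean of all 3 probes Vegfa passed in heavy polysome RNA (0.35, adjusted p = 0.0263). Of the 5 tested partners of Vegfa, 1 passed: the related ligand gene Vegfb rose in heavy polysome RNA (0.44 ± 0.14, adjusted p = 0.0272), a call lost without any 1 heavy polysome array (adjusted p up to 0.0908). The co-receptor gene Nrp1 had -0.38 ± 0.18 in total against 0.22 ± 0.08 in heavy polysome RNA and did not pass in either (adjusted p = 0.0510 and 0.166).

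Hif1a encodes the oxygen-regulated subunit of hypoxia-inducible factor. It gave -0.19, -0.35, 0.04 and 0.21 in total RNA, against 1.05, -0.26, 0.26 and -0.07 in heavy polysome RNA. Heavy polysome array 1 stood apart, and without it the heavy polysome mean went from 0.25 to -0.02. Neither that mean (± 0.58, adjusted p = 0.461) nor the total RNA mean of -0.07 ± 0.25 (adjusted p = 0.870) passed. The prolyl hydroxylase genes Egln1, Egln2 and Egln3 and the asparaginyl hydroxylase gene Hif1an, whose products inactivate HIF1A when oxygen is present, did not pass. Egln2 had the highest heavy polysome value of the 4 (0.77 ± 0.70, adjusted p = 0.0741, beside -0.01 ± 0.41 in total RNA). Of 23 tested HIF target genes, the glycolytic enzyme gene Eno1 was lower in total RNA (-0.92 ± 0.29, adjusted p = 0.0171) and the phosphofructokinase regulator gene Pfkfb4 was higher in heavy polysome RNA (0.59 ± 0.32, adjusted p = 0.0394), 4.35% in each fraction beside 4.37% and 8.91% of all genes. The Eno1 call was lost without total RNA array 1, 2 or 3 (adjusted p up to 0.0821), and the Pfkfb4 call without any 1 of 6 arrays, all but total RNA arrays 1 and 4 (up to 0.110).

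Xiap encodes an inhibitor of apoptosis. It gave -0.45, -0.15, -0.15 and 0.12 in total RNA (-0.16 ± 0.23, adjusted p = 0.499) and 0.41, 0.18, 0.18 and -0.25 in heavy polysome RNA (0.13 ± 0.28, adjusted p = 0.571). The fractions overlapped only through heavy polysome array 4, which lay within the range of total RNA. The probe is dim, above background on 3 of 4 total RNA arrays in Cy5 and on 3 of 4 heavy polysome arrays in Cy3. The second tested probe, A_52_P933175, gave -0.09, -0.27, -0.13 and -0.04 in total RNA, against 0.36, 0.01, 0.28 and -0.04 in heavy polysome RNA. At 2 decimals the highest total RNA array and the lowest heavy polysome array of this probe are equal, and 3.79% of all tested probes had fractions that did not overlap. Its difference between fractions was 0.28 (95% interval -0.01 to 0.58, adjusted p = 0.794), the same value as for the brighter probe (0.28, interval -0.11 to 0.68).

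Cdkn1b encodes p27, an inhibitor of cyclin-dependent kinase 2. It gave 0.59, -0.14, 0.26 and 0.55 in total RNA, against -0.02, 0.22, 0.82 and 0.22 in heavy polysome RNA. The means were equal, 0.31 ± 0.34 and 0.31 ± 0.36, and did not pass (adjusted p = 0.272 and 0.252). The difference was -0.01 with an interval from -0.50 to 0.49, which holds both a gain and a loss of loading. The second tested Cdkn1b probe, A_51_P169173, above background in Cy5 on 1 of 4 total RNA arrays, had -0.06 ± 0.03 in total RNA, below 0 on all 4 arrays, and 0.09 ± 0.21 in heavy polysome RNA. Neither passed in the limma fit of single probes (adjusted p = 0.750 and 0.604), and the total RNA sign was opposite to that of the brighter probe. Nbn encodes nibrin, the subunit through which the MRE11 complex finds DNA breaks. It gave 0.35, 0.05, 0.15 and 0.37 in total RNA, against 0.16, 0.19, -0.61 and 0.10 in heavy polysome RNA, with means of 0.23 ± 0.16 and -0.04 ± 0.38 that did not pass (adjusted p = 0.354 and 0.891). Heavy polysome array 3 alone was below 0. The second tested Nbn probe, A_52_P298548, gave 0.61 on that array and 0.14, 0.00 and -0.06 on heavy polysome arrays 1, 2 and 4. Its means of 0.05 ± 0.19 in total and 0.17 ± 0.31 in heavy polysome RNA did not pass (adjusted p = 0.868 and 0.429), so the 2 probes differed in sign in heavy polysome RNA. Rad50, the ATPase of the same complex, was lower in total RNA (-0.45 ± 0.23, adjusted p = 0.0405, beside -0.30 ± 0.10 in heavy polysome RNA), a call lost without any 1 of 6 arrays, all 4 of total RNA and heavy polysome arrays 2 and 4 (adjusted p up to 0.136). Mre11a (-0.26 ± 0.48 and -0.03 ± 0.20) and Atm (-0.10 ± 0.17 and -0.14 ± 0.09) did not pass.

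**Figure D4:**
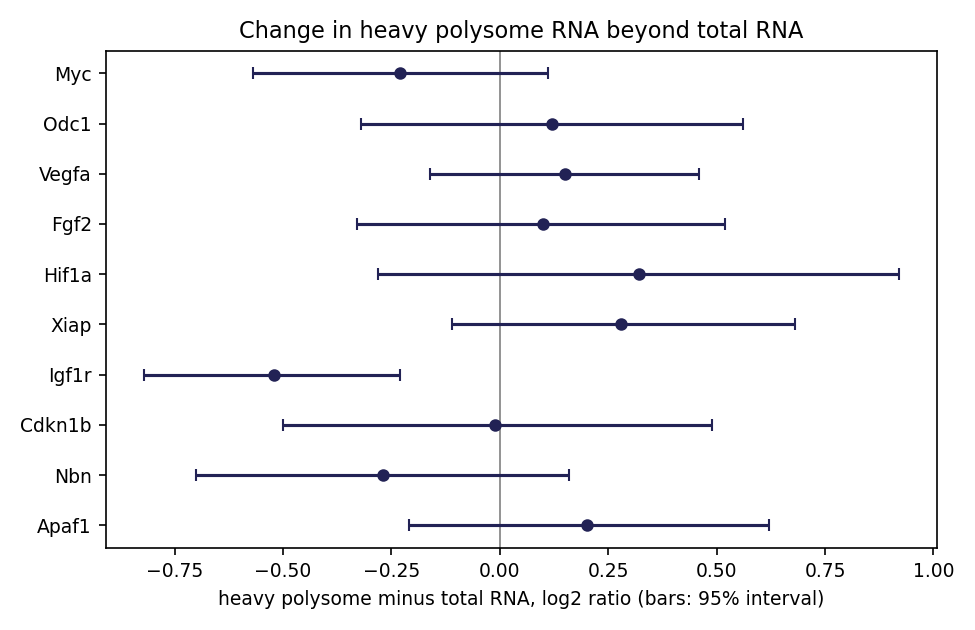
Log2 ratio in heavy polysome RNA minus that in total RNA (horizontal axis) for the 10 genes, with 95% intervals from limma over 8 arrays. The interval of Igf1r (-0.82 to -0.23) is the only interval of the 10 that does not hold 0, before adjustment over all genes.

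The signal of each channel also shows how far a transcript was found in heavy polysome RNA relative to total RNA in control cells and in Eif4g3 siRNA cells. Fraction and slide cannot be told apart in these levels, so they are given as a description. The normalised log2 signal of Igf1r in control cells was 9.15 ± 0.53 for total RNA and 9.60 ± 0.37 for heavy polysomes (n = 4), a heavy minus total difference of 0.44, higher than in 95% of all genes. In Eif4g3 siRNA cells the heavy polysome level was 8.92 ± 0.31, a difference of -0.08 from total RNA, higher than in 38.9% of genes. In both kinds of cell the ranges of the fractions overlapped. These are values of the brightest Igf1r probe, and the other tested probes differed. A_51_P318365 had heavy minus total differences of 0.36 in control cells and 0.42 in Eif4g3 siRNA cells. A_52_P634111 had 0.23 and -0.04. Vegfa was the most enriched of the 10 genes in heavy polysome RNA, with 12.35 ± 0.26 in total against 13.02 ± 0.43 in heavy polysome RNA of control cells and 12.39 ± 0.22 and 13.20 ± 0.27 in Eif4g3 siRNA cells. Its differences of 0.67 and 0.82 exceeded those of 99% and 97.5% of all genes, and the fractions did not overlap in Eif4g3 siRNA cells, as for 8.04% of genes. The brightest Fgf2 probe had 8.05 ± 0.36 in total RNA of control cells, which became 8.76 ± 0.46 with Eif4g3 siRNA, and its heavy polysome level went from 7.94 ± 0.58 to 8.75 ± 0.35, so heavy and total RNA stayed within 0.11 of each other in both. The second Fgf2 probe, A_51_P399845, had heavy minus total differences of 0.15 in control cells and 0.33 in Eif4g3 siRNA cells. For all genes the heavy minus total difference had a median of -0.02 in control cells, with 80% of genes between -0.54 and 0.33, and of 0.01 in Eif4g3 siRNA cells.

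**Figure D5:**
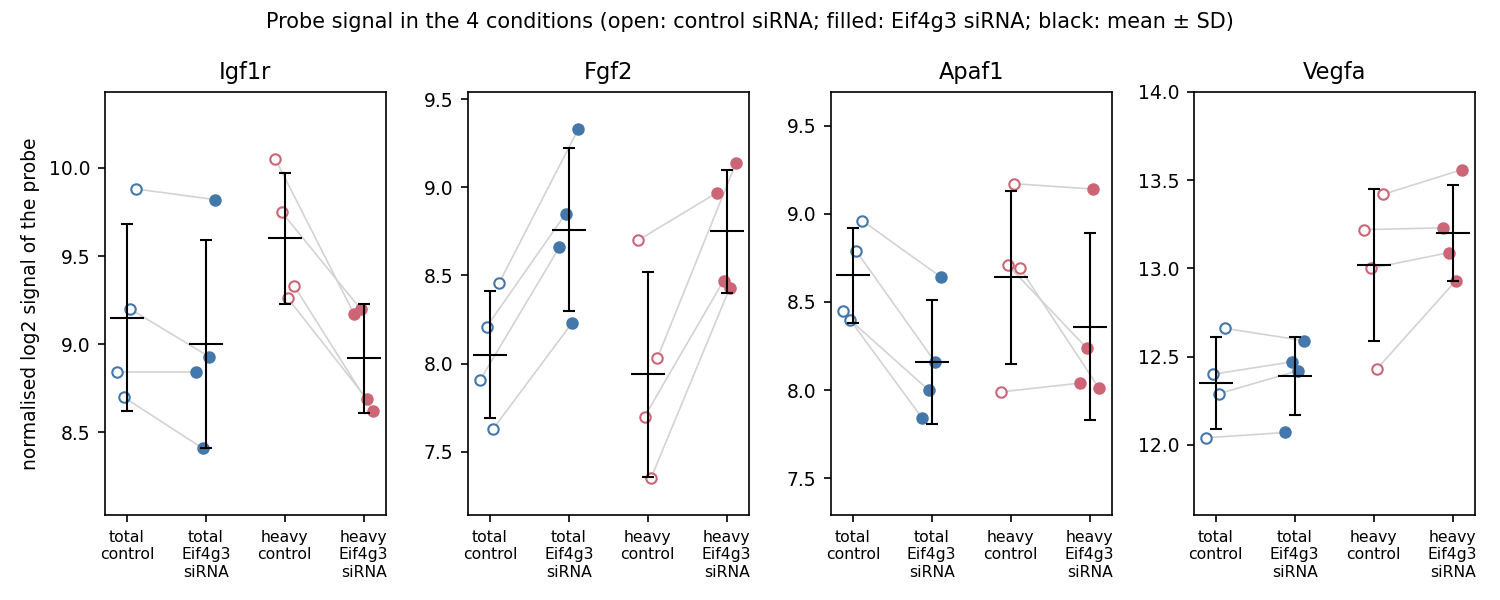
Normalised log2 signal (vertical axis, each panel 2.4 units high) of the brightest probes of Igf1r, Fgf2, Apaf1 and Vegfa in the 4 conditions, with open points for control siRNA, filled points for Eif4g3 siRNA, a grey line joining the channels of 1 array, and mean ± SD (n = 4). The heavy polysome level of Igf1r goes from 9.60 to 8.92 on lines that all fall, Fgf2 rises on all lines, and Vegfa has its higher means in heavy polysome RNA with either siRNA.

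Other transcripts of the same 2 classes were counted for comparison. Of 12 tested eIF4E-sensitive genes outside the 10, 2 were higher and 2 lower in total RNA (33.3%, beside 4.37% of all genes), and 2 were higher and 1 lower in heavy polysome RNA (25%, beside 8.91%). Birc5, which encodes survivin, and Bcl2l1, which encodes BCL-XL, rose in both fractions, Birc5 by 0.59 ± 0.15 and 0.75 ± 0.23 (adjusted p = 0.0204 and 0.00498), and Bcl2l1 by 0.38 ± 0.13 and 0.71 ± 0.12 (adjusted p = 0.0447 and 0.00357). Mcl1 (-0.22 ± 0.46 and -0.13 ± 0.27) and Bcl2 (-0.18 ± 0.29 and 0.02 ± 0.41), which also encode inhibitors of apoptosis, did not pass in either. The D-type cyclin genes were lower in total RNA, Ccnd3 at -1.27 ± 0.45 (adjusted p = 0.0211) and Ccnd1 at -0.55 ± 0.12 (adjusted p = 0.0494), and in heavy polysome RNA they had -0.77 ± 0.63 and -0.16 ± 0.37 without passing. Mmp3, the matrix protease stromelysin, fell in heavy polysome RNA (-1.55 ± 0.81, adjusted p = 0.00880) beside -0.69 ± 0.39 in total RNA. The heavy polysome calls of Birc5, Bcl2l1 and Mmp3 were kept with any 1 array left out. The total RNA calls were not: Birc5 needed total RNA arrays 1, 2 and 3, Ccnd3 needed every total RNA array, and Bcl2l1 and Ccnd1 needed 6 arrays, all but heavy polysome arrays 1 and 3 (without 1 of them, adjusted p up to 0.170). The list median was -0.19 in total against 0.00 in heavy polysome RNA, beside -0.04 and 0.02 for all tested genes. With median centring Bcl2l1 and Birc5 had total RNA values of -0.51 and -0.31, which were 0.27 and 0.47 above the median of all genes there, and their heavy polysome values kept their sign (0.69 and 0.81). Beside Mmp3, 2 of the 7 tested macrophage markers were lower in each fraction (28.6%, beside 4.37% and 8.91% of all genes). Spp1 was lower in both (-1.35 ± 0.55 and -1.48 ± 0.83, adjusted p = 0.0341 and 0.0150). Csf1r was lower in total RNA (-0.57 ± 0.30, adjusted p = 0.0447, beside -0.35 ± 0.25 in heavy polysome RNA). Trem2 was lower in heavy polysome RNA (-1.39 ± 0.71, adjusted p = 0.0165, beside -0.80 ± 0.64 in total RNA). Cd68 and Cd14 had negative means in both fractions without passing, and Lyz1 (-0.05 and 0.02) and Lyz2 (-0.04 and 0.05) stayed near 0. The median of the 7 markers lay between -0.77 and -0.22 on total RNA arrays and between -0.71 and -0.09 on heavy polysome arrays. Their part in these results was not tested.

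Of 29 tested genes reported to bear an IRES, also outside the 10, 1 was higher and 0 lower in total RNA (3.45%, beside 4.37% of all genes). In heavy polysome RNA 3 were higher and 1 lower (13.8%, beside 8.91% of all genes). Lef1, a transcription factor of the Wnt pathway, was higher in both (0.78 ± 0.19 and 0.64 ± 0.33, adjusted p = 0.0158 and 0.0178), and with median centring its total RNA value was -0.09, 0.69 above the median of all genes. Fmr1, the RNA-binding protein lost in fragile X syndrome, had 0.39 ± 0.24 in total and rose by 0.66 ± 0.37 in heavy polysome RNA (adjusted p = 0.0219), and the co-chaperone gene Bag1 had -0.07 ± 0.28 and rose by 0.70 ± 0.55 (adjusted p = 0.0479). Srebf1, which controls lipid synthesis, was lower in heavy polysome RNA (-0.46 ± 0.09, adjusted p = 0.0112, beside -0.11 ± 0.10 in total RNA). Each of these calls depended on single arrays: Lef1 was lost in heavy polysome RNA without array 2 or 4 of that fraction and in total RNA without total RNA array 1, 2 or 3, Fmr1 without heavy polysome array 3 or 4, Srebf1 without heavy polysome array 2 or 4, and Bag1 without any 1 array except heavy polysome array 3 (adjusted p up to 0.125). Of 30 genes of proteins that bind IRES elements, such as Ptbp1 and the hnRNP genes, limma called 0 in total RNA, 0 in heavy polysome RNA and 0 in the difference. The shares over all genes were 4.37%, 8.91% and 0%. The lowest adjusted p among the 30 genes were those of nucleolin (Ncl, -0.76 ± 0.56 in total RNA, 0.0592) and Gemin5 (-0.45 ± 0.32 in heavy polysome RNA, 0.0603). Of 49 tested partners of the 10 genes, 0 were higher and 1 lower in total RNA (2.04%, beside 4.37% of all genes). In heavy polysome RNA 3 of them were higher and 2 lower (10.2%, near the 8.91% of all genes). In none of these lists did the difference between fractions pass for any gene.

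The start regions of the 10 genes were read from RefSeq (GRCm38.p6), which held 11 windows for 8 of them. In the first 250 bases of each window, 9 of the 11 windows had more G and C than the median of all 32851 windows (52.4%). These bases do not always lie before the gene. For Fgf2 only the first 74 of them precede the annotated start, and Vegfa and Xiap have windows at more than 1 start. Odc1 had 80.0% and Igf1r 77.6%, higher than 97.6% of windows in the case of Igf1r, followed by Apaf1 (75.6%) and Hif1a (66.4%). Xiap ran from 39.2% to 57.6% over its 3 windows. The last 50 bases of each window were above the median of all windows (56.0%) in 9 of 11 windows. The leaders as a whole were not examined. The letters GGGCGG on either strand, the core of the GC box bound by SP1, occurred in 9 of 11 windows and in 32.7% of all windows. The E-box CACGTG, which MYC binds, occurred in 1 (Hif1a), against 6.02% of all, and ACGTG, the core of the hypoxia response element, which overlaps the E-box, in 4, against 16.6%. The 250 bases before the start of Igf1r are shown because this gene had the lowest heavy polysome ratio of the 10. They lie at chr7:67952007-67952256 (GRCm38.p6, plus strand), and capitals mark the letters GGGCGG.
Igf1r: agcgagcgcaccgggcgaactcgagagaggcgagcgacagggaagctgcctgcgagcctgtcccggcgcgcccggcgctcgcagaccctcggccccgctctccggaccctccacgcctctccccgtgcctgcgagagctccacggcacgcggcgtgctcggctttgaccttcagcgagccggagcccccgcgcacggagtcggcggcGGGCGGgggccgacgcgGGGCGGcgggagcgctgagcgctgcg
A match of letters is a description of the sequence, and the array values do not bear on binding there.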

How the data were processed

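Per the submitters' processing notes, the arrays were read with Agilent Feature Extraction. Per the file headers, the deposited scanner tables hold for each channel the mean spot signal and the median local background as intensity, and the processed ratio of Cy5 to Cy3 as log10, from version 10.7.3.1 on 7 arrays and 10.5.1.1 on total RNA array 2. The log2 ratios of the deposited series matrix lay within 0.01 of the processed ratio for 99.8% of probes. The 10 genes, the lists and the tests were chosen with earlier results of these data known.

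Signals were background-corrected (normexp, offset 50) and loess-normalised within arrays (span 0.3), and spots of a probe were averaged. Names were updated through RefSeq records of GRCm38.p6, which matched 33026 probes (80.2%). Per the file headers, coordinates of probes refer to mm8. A gene was represented by its brightest probe and tested if either channel of that probe was above background on at least 3 arrays of a fraction, a probe counting as above background where at least 50% of its spots did. Between 131 and 241 spots per array marked as outliers were left out. limma 3.58.1 (R 4.3.3) fitted 1 coefficient per fraction over all 8 arrays, two-sided, with Benjamini-Hochberg adjustment over 14474 genes. The same fit was tested on simulated data. Levels were the channel values after Aquantile normalisation between arrays. Named were all 10 genes with their probes, genes of the other lists past the threshold (at most 6 per list), partners of called genes, the 3 genes most correlated with each of the 3 genes of lowest adjusted p, and some further list genes chosen after their values were seen. Values of some partners of Xiap are not reported here. Each of the 5 slides held 1 fraction, and 1 alternative took the slide for a random block. Plots used Python 3.11.15 and matplotlib 3.10.9.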

Additional observations from a re-analysis of the deposited data

Results flagged for a closer look

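In 2 of the 20 groups of 4 arrays examined (10 genes in 2 fractions), 1 array lay far from the other 3 relative to the range of the group, and chance flags about 1 in 20 such groups. Myc had -0.50 on heavy polysome array 1 and -0.20 to -0.18 on the others. Nbn had -0.61 on heavy polysome array 3 and 0.10 to 0.19 on the others, and without that array its heavy polysome mean was 0.15 in place of -0.04 (limma adjusted p = 0.363). The second tested Nbn probe, A_52_P298548, gave 0.61 on that array. Both arrays are among the 3 that followed their fraction least.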

How the results depend on the processing

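The count of the 10 genes called in total RNA was 1 and became 0 with median centring and with the replicate number as a block, and 2 with scanner-processed signals, with the series matrix, with slide as a random block (consensus correlation -0.269), with each fraction fitted alone and, as an alternative added after seeing the data, without the 3 arrays of lowest correlation. Leaving out 1 array gave 0 to 2, with 0 without any 1 total RNA array. In heavy polysome RNA the count was 2 and became 0 with median centring and 1 with each fraction fitted alone, 3 with scanner-processed signals, the series matrix, the mean of all tested probes, every probe by itself and without the 3 arrays, and 1 to 2 with 1 array left out. In the difference it was 0 under every alternative run, but so was the count over all tested genes, so this 0 is no measure of stability. Fgf2 in total RNA went from 0.71 to -0.05 with median centring. Its total RNA call was also lost with the replicate block (adjusted p = 0.0629), and its heavy polysome call with each fraction alone (0.0586). Igf1r was called in heavy polysome RNA in 20 of 21 settings, the exception being median centring, where its value stayed at -0.68. The named calls of both fractions kept their sign relative to the median of all genes under median centring and with scanner-processed signals. Same-numbered arrays of the 2 fractions had residual correlations of -0.297 to 0.172, so the numbers were not taken to pair them. The call of all genes, 633 for total RNA and 1290 for heavy polysomes, ran from 0 (median centring) to 3161 (without the 3 arrays) and from 0 (median centring) to 2591 (slide block). Total RNA gave 46 to 1324 calls with 1 array left out and heavy polysome RNA 337 to 1537. The low signal of Xiap limits its ratios.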
